A study of Mus musculus with 12 samples.

Results

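The genes described here encode the B7 ligands and the CD28 family receptors of T cells. They are 9 of the 22180 genes measured, and were taken by name as the rows annotated with exactly 1 member symbol. The members and the gene lists below were chosen with earlier results of these data known. Their counts beside the shares of all genes are therefore no independent test. The 6 ligand genes are Cd80, Cd86, Cd274, Pdcd1lg2, Icosl and Cd276, and the 3 receptor genes are Cd28, Ctla4 and Icos. Each of the 9 genes has 1 row of its own, so no choice among rows was needed.

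RNA was hybridised to 12 Affymetrix arrays, 3 in each of 4 groups, from T cells of mice activated in culture. The nTregs (natural regulatory T cells, purified from spleen) were mixed with T cells depleted of Tregs at 1 part to 10 parts. All 4 groups share bead activation through CD3 and CD28 for 2 days with human interleukin-2 at 500 U/mL, so CD28 had been engaged by antibody in every culture. The cultures then received 1 µM azacitidine (AzaC), a cytidine analogue that inhibits DNA methyltransferases, or PBS for 2 more days, and were sorted. The nTreg groups are the CD4+ cells without DsRed and with the green Foxp3 reporter, and the CD4 groups, called CD4 cells, are CD4+ cells with DsRed and without the reporter. The gates thus leave out nTregs that had lost the reporter and DsRed-marked cells that had turned it on, and the CAG promoter behind DsRed is active in most cell types, so DsRed marks the origin of a cell and not its type. The labels give the cross of B6.Foxp3GFP with B6.Cg-Tg(CAG-DsRed*MST)1Nagy/J as the strain of all 12 samples, whereas the design text takes the nTregs from B6.Foxp3GFP mice and only the depleted T cells from the cross with B6.CAGDSRED. The sources used here give no age of the mice, and a sort of CD8 effector cells named in the labels was not analysed here. Nothing states that the 3 replicates of a group are separate animals or cultures, so the p-values reflect only how far these samples scatter, which may be technical.

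T cells need a second signal beside the antigen receptor, and CD80 and CD86 provide it when they bind CD28. The same pair binds CTLA-4 more tightly, which withholds that signal, and Tregs use CTLA-4 to strip both ligands from antigen-presenting cells. PD-L1 (Cd274) and PD-L2 (Pdcd1lg2) engage the inhibitory receptor PD-1, and ICOS ligand (Icosl) engages ICOS, a receptor that supports effector and regulatory T cells. B7 ligands are best known on antigen-presenting cells, but activated T cells express several of them too.

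The promoters of 4 ligands are shown because AzaC acts on DNA methylation and 3 of these genes (Cd80, Icosl and Cd274) changed with it. The fourth, Pdcd1lg2, is the neighbour of Cd274 on chromosome 19 and did not pass the test. Each stretch runs from 250 bases before to 50 bases after a transcription start in the RefSeq annotation of GRCm38.p6 and lies on the plus strand, with every CpG in capitals. The windows are chr16:38458683-38458982 for Cd80, chr10:78069118-78069417 for Icosl, chr19:29367188-29367487 for Cd274 and chr19:29410669-29410968 for Pdcd1lg2. For Cd80 and Cd274 the window lies inside the outermost limits of the annotated gene, which begin at 38457430 and 29362107.
Cd80: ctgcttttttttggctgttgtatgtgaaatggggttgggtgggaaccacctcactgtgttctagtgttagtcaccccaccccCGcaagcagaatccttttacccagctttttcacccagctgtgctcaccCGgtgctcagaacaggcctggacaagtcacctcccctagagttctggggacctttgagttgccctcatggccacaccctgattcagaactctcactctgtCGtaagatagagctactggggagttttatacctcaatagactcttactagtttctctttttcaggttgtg
Icosl: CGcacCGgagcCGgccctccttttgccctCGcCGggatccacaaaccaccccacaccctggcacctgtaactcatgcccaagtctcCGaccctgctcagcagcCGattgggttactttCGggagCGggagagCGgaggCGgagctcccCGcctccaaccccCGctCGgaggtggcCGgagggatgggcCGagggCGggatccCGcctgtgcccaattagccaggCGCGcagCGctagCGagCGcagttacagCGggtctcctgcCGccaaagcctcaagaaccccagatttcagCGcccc
Cd274: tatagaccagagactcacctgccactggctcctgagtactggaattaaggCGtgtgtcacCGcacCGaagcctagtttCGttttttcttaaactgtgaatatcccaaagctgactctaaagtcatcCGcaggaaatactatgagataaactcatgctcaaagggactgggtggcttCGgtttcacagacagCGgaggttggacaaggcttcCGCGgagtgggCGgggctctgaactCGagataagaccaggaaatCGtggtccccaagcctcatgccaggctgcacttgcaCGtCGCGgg
Pdcd1lg2: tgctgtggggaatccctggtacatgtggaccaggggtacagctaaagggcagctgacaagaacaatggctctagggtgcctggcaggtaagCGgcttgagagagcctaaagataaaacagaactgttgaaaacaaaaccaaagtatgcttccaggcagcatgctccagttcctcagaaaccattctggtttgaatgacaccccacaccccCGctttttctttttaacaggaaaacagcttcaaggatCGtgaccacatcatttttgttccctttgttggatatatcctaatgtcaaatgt
The Cd80 and Pdcd1lg2 windows hold 3 CpGs each, and 23.3% of all 32851 promoters hold fewer. The Cd274 window holds 15 CpGs (65.4% hold fewer) and that of Icosl 26 (83.1% hold fewer), against a median of 7 over all promoters. Of the windows shown for genes called under AzaC, that of Cd80 lies below this median and those of Cd274 and Icosl above it. Whether CpG count bears on the response was not tested. Methylation itself was not measured. RefSeq windows were found for 6 of the 9 genes, and Cd86, Cd28 and Icos have no entry in the table used. The other windows are those of Cd276 with 39 CpGs, on the minus strand, and Ctla4 with 8.

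The 4 windows shown and those of Cd276 and Ctla4 were searched on both strands for short motifs that bind transcription factors active in T cells. The AP-1 motif TGANTCA was found in the Cd80 window, and 7.81% of all promoters hold it. The NF-kB motif, given by name because it needs letters for mixed bases, was found in those of Icosl and Pdcd1lg2 (8.46% of all promoters), and the TATA motif TATAAA in those of Cd80 and Ctla4 (13.6%). The interferon motifs known as GAS, TTCNNNGAA (8.3%), and the core of the ISRE, TTTC and a second TTTC set apart by any 2 bases (3.44%), the forkhead motif GTAAACA (3.65%) and the E-box CACGTG (7.15%) were found in 0 of the 6 windows. A match is a run of letters and was not tested as a binding site.

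The labelled cell types were set against their markers. All 10 T cell markers measured lay above the array median on at least 1 array of each group, and the median log2 signal of an array was 6.67 to 6.80. The mean of Foxp3, the transcription factor that defines Tregs, was 12.34 ± 0.31 (SD, n = 3) in nTregs and 8.05 ± 0.24 in CD4 cells under PBS. Under PBS 3 of the 10 were higher in nTregs by limma at an adjusted p under 0.05, namely Foxp3, Ikzf2 and Il2ra. Another 3 were lower, Cd4, Cd3e and Lat, against 3.9% of all genes higher and 4.12% lower. Cd4 had means of 10.84 in nTregs and 11.68 in CD4 cells and passed without each array in turn. Cd3e and Lat passed in 11 and 3 of the 12 omissions. Array nTreg PBS 1 stood apart (mean correlation with the other arrays 0.972), followed by CD4 PBS 3 (0.979), against 0.983 to 0.987 for the remaining 10. In such bulk samples fewer cells of a type and less RNA per cell cannot be told apart.

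**Figure D1:**
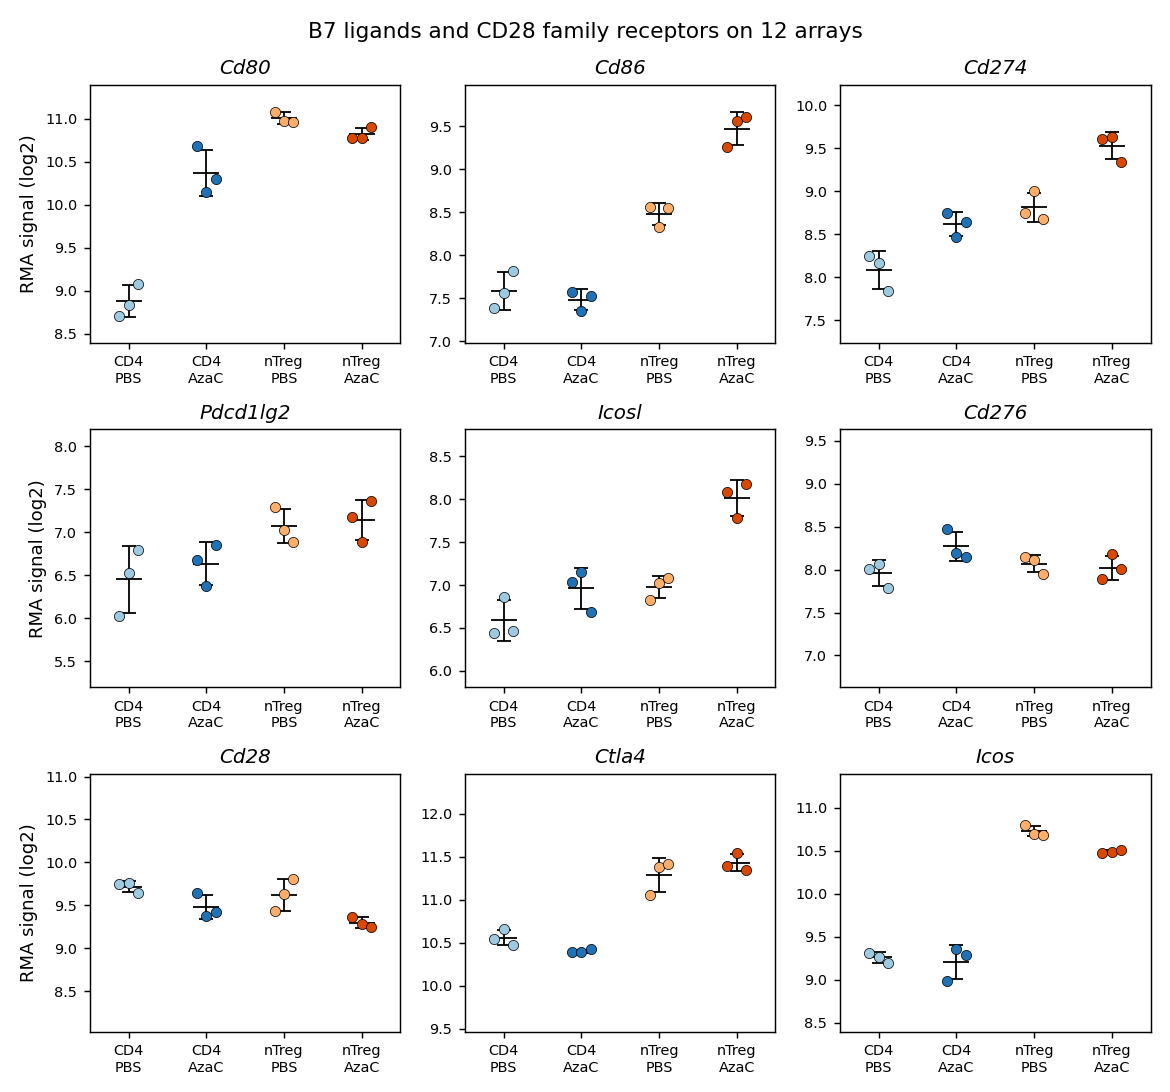
Values of the 9 genes on each of 12 arrays, as RMA signal on the log2 scale. Points are arrays, the long bar is the group mean and the short bars are ±1 SD (n = 3). All panels span the same number of log2 units. In CD4 cells Cd80 moved from a mean of 8.88 under PBS to 10.37 with AzaC, and in nTregs Cd86, Cd274 and Icosl were highest with AzaC.

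In nTregs, AzaC raised 3 of the 9 genes, all of them ligands. Icosl rose 2.05-fold, Cd86 1.99-fold and Cd274 1.64-fold. The other 3 ligands and all 3 receptors did not pass the test. The test was limma's over all genes with Benjamini-Hochberg adjustment, and a gene was called at an adjusted p under 0.05. Among all genes 2.02% were called in this comparison, 1.42% as higher.

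Cd86, the ligand that resting antigen-presenting cells already carry, had values of 8.56, 8.33 and 8.55 in nTregs under PBS and 9.26, 9.56 and 9.61 with AzaC. The groups did not overlap, and the lowest AzaC array lay above the highest PBS array. The log2 difference was 0.99 (SE 0.13, adjusted p = 0.00157), and the gene held rank 75 among the rises of all genes. The call held without each of the 12 arrays in turn, at 0.92 to 1.10.

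Icosl, which encodes the ligand of ICOS, had values of 6.83, 7.02 and 7.08 under PBS and 8.08, 7.78 and 8.18 with AzaC in nTregs. All 3 AzaC arrays stood above all 3 PBS arrays, and above both CD4 groups. The difference was 1.04 (SE 0.15, adjusted p = 0.0028, rank 64). It was also called without each array in turn, at 0.95 to 1.15.

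Cd274, which encodes PD-L1, had values of 8.75, 9.0 and 8.67 under PBS and 9.61, 9.63 and 9.34 with AzaC in nTregs. The groups did not overlap. The difference of 0.72 (SE 0.14, adjusted p = 0.0153, rank 219) was less firm than those of Cd86 and Icosl. Its adjusted p was 0.0506 without nTreg PBS 3, 0.0721 without nTreg AzaC 1 and 0.0845 without nTreg AzaC 2, with differences of 0.65 to 0.82 over all 12 omissions.

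Cd80 was at its highest in nTregs under PBS, at 11.08, 10.98 and 10.96, and stood at 10.78, 10.78 and 10.90 with AzaC. All 3 AzaC arrays were lower, by a gap of 0.06 between the groups, but the difference of -0.19 (95% interval -0.48 to 0.10) did not pass (adjusted p = 0.486). Pdcd1lg2, which encodes PD-L2, differed by 0.07 (-0.34 to 0.48), and Cd276, whose receptor is not settled, by -0.04 (-0.31 to 0.22). For these 3 ligands an increase as large as that of Icosl lies outside the interval.

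The 3 receptors of nTregs did not pass the test with AzaC. Cd28 had values of 9.43, 9.63 and 9.81 under PBS and 9.37, 9.28 and 9.25 with AzaC, without overlap. The difference was -0.32 (SE 0.11, adjusted p = 0.179), and with array weights it was called (-0.38, adjusted p = 0.0202). Icos had a difference of -0.24 (SE 0.11, adjusted p = 0.278), again without overlap, and Ctla4 one of 0.14 (-0.10 to 0.38) with overlapping groups. Over the 9 genes, 6 had groups without overlap, against 24.5% of all genes. The median difference was 0.07, against -0.04 for all genes.

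In CD4 cells, Cd80 alone of the 9 genes was called with AzaC, 2.82-fold higher. At an unadjusted p under 0.05 stood 4 of the 9, against 15.2% of all genes. Cd86, which rose in nTregs, had overlapping groups in CD4 cells. Among all genes 1.76% were called, 0.83% as higher. Cd80 held rank 8 among all rises of this comparison.

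Cd80, a ligand that appears after activation and binds CTLA-4 more tightly than CD28, had values of 8.71, 8.84 and 9.08 in CD4 cells under PBS and 10.68, 10.15 and 10.30 with AzaC. The lowest AzaC array stood 1.07 above the highest PBS array. The log2 difference was 1.5 (SE 0.14, 95% interval 1.21 to 1.79, adjusted p = 9.09e-05). It was called without each array in turn, at 1.35 to 1.61 (adjusted p between 4.78e-05 and 0.000875).

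Cd274 had values of 8.25, 8.16 and 7.84 in CD4 cells under PBS and 8.75, 8.47 and 8.64 with AzaC. The groups did not overlap, but the difference of 0.53 (SE 0.14, 95% interval 0.24 to 0.83) had an adjusted p of 0.0711. It fell to 0.0405 without nTreg PBS 1, an array that is in neither group and enters through the shared spread. Icosl differed by 0.37 (0.04 to 0.70) and Cd276 by 0.31 (0.05 to 0.57), with adjusted p values of 0.267 and 0.249.

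Cd86 had values of 7.38, 7.56 and 7.81 under PBS and 7.57, 7.35 and 7.52 with AzaC in CD4 cells. The groups overlapped, and the interval of the difference, -0.39 to 0.18, leaves out the rise of 0.99 seen in nTregs. Pdcd1lg2 differed by 0.19 (-0.22 to 0.59). Of the receptors, Cd28 differed by -0.24, Ctla4 by -0.16 and Icos by -0.05, none past the test (adjusted p = 0.335, 0.524 and 0.872). Groups without overlap were found for 5 of the 9 genes, against 23.6% of all genes, and the median difference was 0.19, against 0.01.

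**Figure D2:**
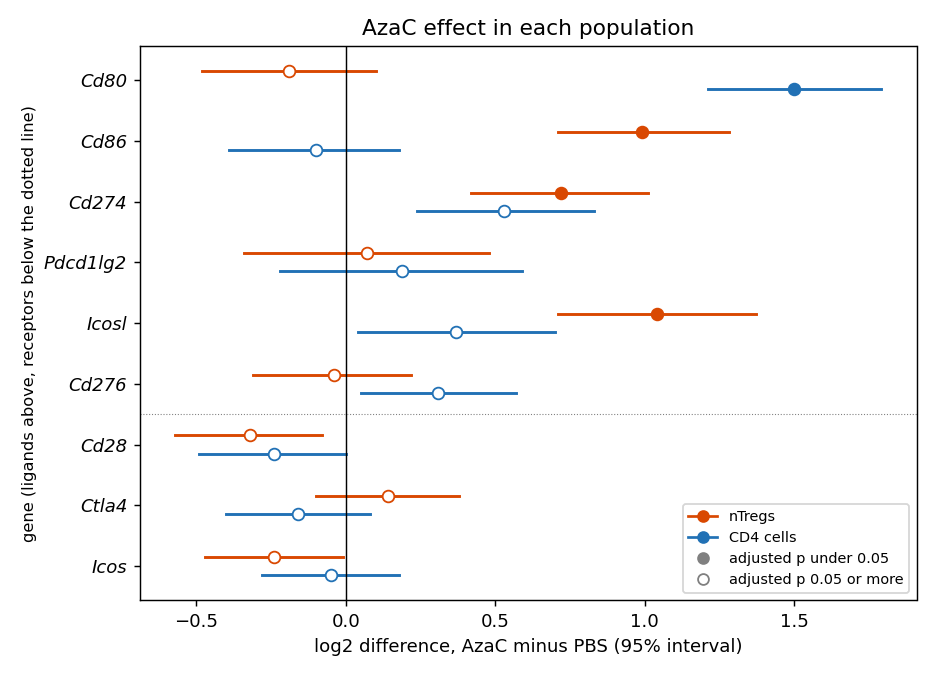
AzaC minus PBS for each of the 9 genes, as a log2 difference with its 95% interval, in nTregs (orange) and CD4 cells (blue). Filled points have an adjusted p under 0.05, and the ligands stand above the dotted line. Cd86, Cd274 and Icosl are filled in nTregs and only Cd80 in CD4 cells, at 1.5.

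The 2 responses were set against each other by the interaction, the AzaC effect in nTregs minus that in CD4 cells. It was called for 2 of the 9 genes, Cd80 and Cd86, in opposite directions. Among all genes 0.203% were called, 0.144% as positive and 0.0586% as negative. For Cd80 the interaction was -1.69 (SE 0.19, adjusted p = 0.00195), the third most negative value of all genes. For Cd86 it was 1.10 (SE 0.19, adjusted p = 0.0356, rank 62 among positive values).

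The Cd80 interaction was called without each array in turn, at -1.80 to -1.54 (adjusted p between 0.00336 and 0.013). That of Cd86 kept its size, at 0.98 to 1.21, but not its call. Its adjusted p was 0.0823 without CD4 PBS 2, 0.0707 without CD4 PBS 3, and 0.0798, 0.0762 and 0.0923 without CD4 AzaC 1, 2 and 3. It was 0.0939 without nTreg PBS 2, and 0.0507, 0.1 and 0.126 without nTreg AzaC 1, 2 and 3. The call held without the other 3 arrays.

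The interactions of Icosl (0.66, SE 0.22, adjusted p = 0.201) and Cd274 (0.18, SE 0.19, adjusted p = 0.623) did not pass. A difference between the populations in these 2 responses was therefore not shown, although both genes were called in nTregs and not in CD4 cells. The interval for Cd274, -0.23 to 0.60, spans 0, and that for Icosl, 0.20 to 1.13, does not before adjustment. Cd276 (-0.35), Ctla4 (0.29), Icos (-0.19), Pdcd1lg2 (-0.11) and Cd28 (-0.08) did not pass either.

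**Figure D3:**
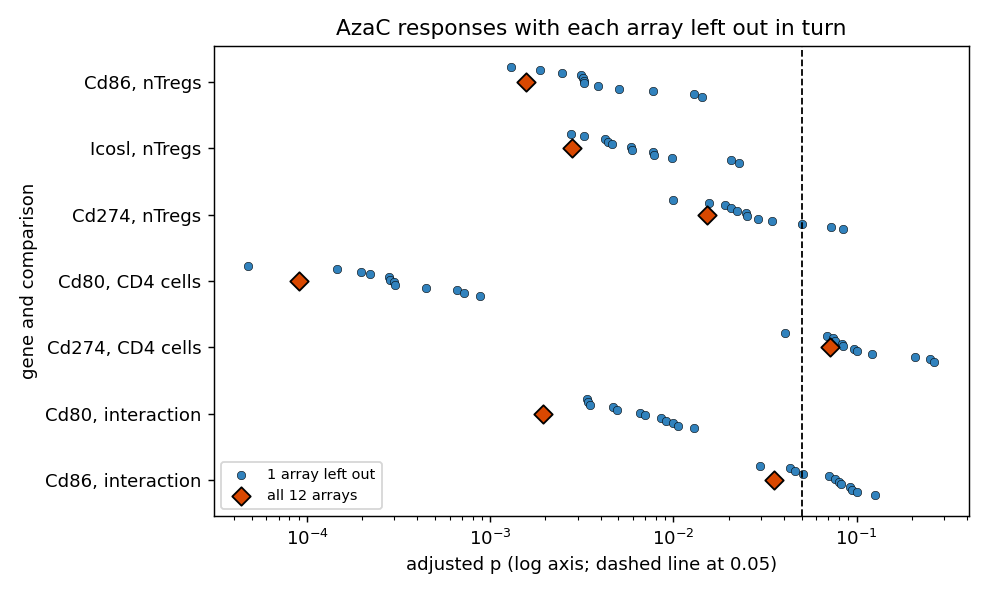
Adjusted p of 7 AzaC results with all 12 arrays (diamonds) and with each array left out in turn (circles), on a log axis with a dashed line at 0.05. Cd86 and Icosl in nTregs and Cd80 in CD4 cells stay left of the line, while the circles of the Cd86 interaction reach 0.126.

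Under PBS, nTregs had higher levels than CD4 cells of 5 of the 9 genes, and lower levels of 0. They were 3 ligands, Cd80, Cd86 and Cd274, and 2 receptors, Icos and Ctla4. Markers of other cells stood higher on the same nTreg arrays, 3 of 21 myeloid and dendritic (Cd209a, H2-Ab1 and H2-Eb1) and 1 of 10 B cell (Cd79b), and their part in these differences was not tested. Among all genes 8.01% were called, 3.90% as higher and 4.12% as lower. At an unadjusted p under 0.05 stood 7 of the 9, against 23% of all genes, and 6 of the 9 had groups without overlap, against 26.7%. Cd80 differed most, 4.38-fold (log2 difference 2.13, SE 0.14, adjusted p = 2.89e-07, rank 20).

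Icos, a costimulatory receptor that T cells gain on activation, had values of 9.31, 9.27 and 9.19 in CD4 cells and 10.80, 10.70 and 10.69 in nTregs. The groups lay far apart relative to their spread. The difference was 1.47 (SE 0.11, adjusted p = 1.13e-06). Ctla4, which Foxp3 maintains in Tregs, had values of 10.55, 10.66 and 10.47 in CD4 cells and 11.06, 11.38 and 11.42 in nTregs. Every nTreg array lay above every CD4 array, with a difference of 0.73 (SE 0.11, adjusted p = 0.000989). Cd28, the receptor that both populations need for activation, overlapped between them and differed by -0.10 (-0.34 to 0.15).

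Of the ligands, Cd86 differed by 0.89 (SE 0.13, adjusted p = 0.000868) and Cd274 by 0.72 (SE 0.14, adjusted p = 0.00493), both without overlap. Pdcd1lg2 had values of 6.03, 6.53 and 6.79 in CD4 cells and 7.29, 7.03 and 6.89 in nTregs. Its difference of 0.62 had an adjusted p of 0.0618, which fell to 0.0349 without CD4 PBS 3. Icosl (0.39, adjusted p = 0.145) and Cd276 (0.11, adjusted p = 0.638) did not pass. The median difference of the 9 genes was 0.72, against 0.03 for all genes.

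With AzaC, 5 of the 9 genes were again higher in nTregs and 0 lower, against 6.75% of all genes called, 4.57% as higher and 2.19% as lower. Groups without overlap were found for 8 of the 9, against 32.3% of all genes. The 5 called genes were Cd86, Cd274, Icosl, Ctla4 and Icos. Higher beside them were 5 of 21 myeloid and dendritic markers, 2 of 10 B cell markers and both CD8 markers, Cd8a (1.36) and Cd8b1 (1.27), whose values are given with the marker lists and whose part was not tested. Cd86 now differed 3.98-fold (1.99, SE 0.13, adjusted p = 5.59e-07), and Icosl 2.08-fold (1.05, SE 0.15, adjusted p = 0.000623). Cd274 differed by 0.91, Ctla4 by 1.02 and Icos by 1.28, with adjusted p values of 0.000863, 5.15e-05 and 4.68e-06.

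Cd80 had a population difference of 0.45 with AzaC (SE 0.14), against 2.13 under PBS, and the change between them is the interaction given above. Its groups still did not overlap, but the adjusted p was 0.0667. It became 0.0154 without CD4 AzaC 1, the highest of the 3 treated CD4 arrays, and 0.0455 without nTreg PBS 1. Pdcd1lg2 (0.51), Cd276 (-0.24) and Cd28 (-0.18) did not pass. The population comparisons share their arrays with the AzaC comparisons, so no overlap of calls between them was counted.

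**Figure D4:**
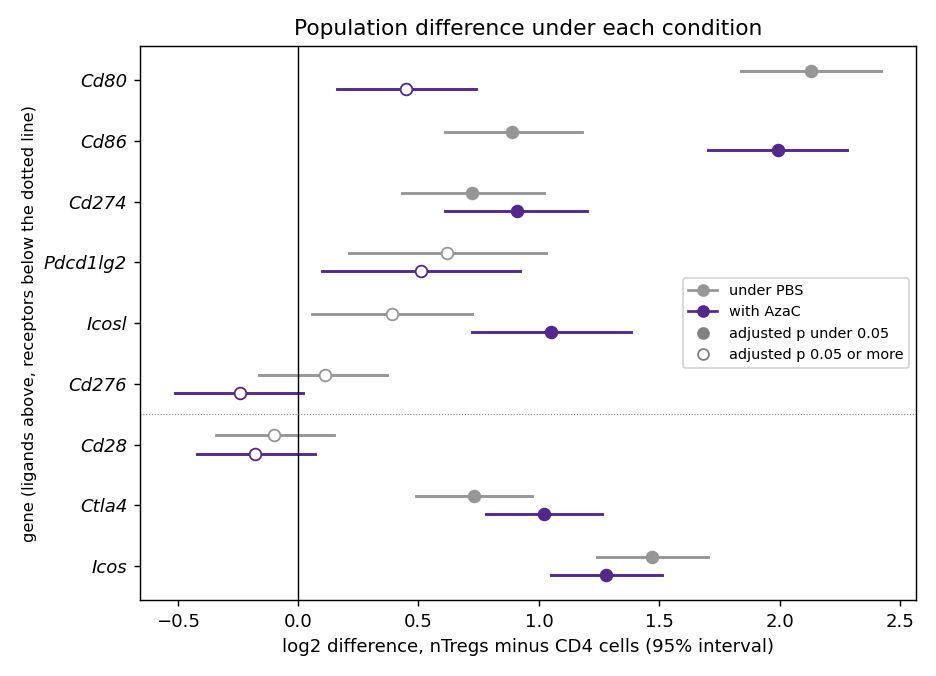
nTregs minus CD4 cells for each of the 9 genes, as a log2 difference with its 95% interval, under PBS (grey) and with AzaC (purple). Filled points have an adjusted p under 0.05. The difference of Cd80 is 2.13 under PBS and 0.45 with AzaC, and that of Cd86 is 0.89 and 1.99.

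The order of the 4 groups differed from gene to gene. Cd80 was lowest in CD4 cells under PBS, then CD4 cells with AzaC, nTregs with AzaC and nTregs under PBS, with no overlap between neighbours but only small gaps after the first. Cd86 did not separate the CD4 groups and rose in steps to nTregs under PBS and nTregs with AzaC. Cd274 had CD4 cells under PBS at the bottom, CD4 cells with AzaC and nTregs under PBS overlapping in the middle, and nTregs with AzaC at the top. Icosl did not separate the 3 lower groups. Icos and Ctla4 split by population, and the group means of Cd276 spanned only 0.31 and those of Cd28 0.42.

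Across the 12 arrays, which share culture conditions and processing and fall into 4 groups, some of the 9 genes went together. Pearson's r was 0.93 for Ctla4 and Icos, 0.90 for Cd86 and Ctla4, and 0.87 for Cd274 and Icosl. Cd28 ran the other way, with r = -0.67 to Cd274 and -0.68 to Icosl. Cd80 had r of 0.75 to both Cd274 and Pdcd1lg2 and of 0.63 to Cd86. Ctla4, Icos and Cd28 are neighbours on chromosome 1, and Cd28 had r = -0.29 to Ctla4 and -0.32 to Icos. Cd274 and Pdcd1lg2, neighbours on chromosome 19, had r = 0.61.

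Outside the family, the genes whose pattern over the 12 arrays was most like Cd80 were Sec24a (r = 0.97), Dcxr (0.96) and Trp53cor1 (0.96). These genes, and those most like the other members, were picked by r over these same arrays. Group differences like those of the member follow from that choice and are no separate evidence. Trp53cor1, a non-coding RNA induced by p53, had group means of 6.81 and 8.11 in CD4 cells under PBS and with AzaC and of 8.57 and 8.52 in nTregs. Like Cd80 it rose in CD4 cells (1.30, SE 0.18, adjusted p = 0.00205), and in nTregs it differed by -0.05 (SE 0.18). Its interaction of -1.35 had an adjusted p of 0.0517.

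The genes most like Cd86 were Mpzl1 (r = 0.98), Enah (0.98) and Nfkbia (0.97), which encodes an inhibitor of NF-kB. Enah, an actin regulator, rose in nTregs from 8.35 to 9.83 (1.48, SE 0.11, adjusted p = 1.18e-05). Mpzl1 rose there by 0.80 (SE 0.13, adjusted p = 0.00636). Nfkbia differed by 0.42 (adjusted p = 0.0348), a call lost without each of 8 arrays (adjusted p up to 0.134).

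The genes most like Cd274 were Ikzf4 (r = 0.96), Lilrb4a (0.96) and Dst (0.95). Lilrb4a, an inhibitory immunoglobulin-like receptor, rose in both populations, by 1.22 (SE 0.12) in nTregs and 0.97 (SE 0.12) in CD4 cells, with adjusted p values of 0.000157 and 0.000997. Those most like Icosl were Kit (r = 0.96), Mdk (0.95) and Lacc1 (0.94). Kit, the receptor of stem cell factor, had nTreg means of 7.15 under PBS and 8.56 with AzaC (1.41, SE 0.14, adjusted p = 0.000106), and Lacc1 of 6.34 and 7.37 (1.03, SE 0.16, adjusted p = 0.00314).

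The rest of the family was followed in a list of 10 other B7 and CD28 family genes. In nTregs, AzaC raised 1 of the 10, Pdcd1, and in CD4 cells 0 were called (1 at an unadjusted p under 0.05, against 15.2% of all genes). Among all genes 1.42% were called higher in nTregs and 1.76% changed in CD4 cells. Pdcd1 encodes PD-1, the receptor of the Cd274 and Pdcd1lg2 products. Its nTreg values were 6.96, 7.18 and 7.10 under PBS and 7.69, 7.49 and 7.55 with AzaC. The groups did not overlap, and the difference was 0.50 (SE 0.12, adjusted p = 0.0476). The call was lost without any 1 array other than CD4 PBS 1 or CD4 PBS 2, with adjusted p up to 0.177. In CD4 cells Pdcd1 had values of 6.34, 6.73 and 6.48 under PBS and 6.97, 6.87 and 6.77 with AzaC. These groups did not overlap either, as for 23.6% of all genes, but the gene was not called. The interaction was called for 0 of the 10 genes, against 0.203% of all genes, so a difference between the populations was not shown.

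Pdcd1 was also higher in nTregs than in CD4 cells, by 0.56 under PBS (SE 0.12, adjusted p = 0.0099) and 0.70 with AzaC (SE 0.12, adjusted p = 0.0019). Btla, an inhibitory receptor of the same family, was lower in nTregs with AzaC (-0.43, SE 0.11, adjusted p = 0.0268; up to 0.127 without CD4 AzaC 1 or 2 or nTreg AzaC 2 or 3). The list's median was -0.07 in nTregs and 0.02 in CD4 cells under AzaC.

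Of 19 measured genes of CD28 and ICOS signalling, AzaC raised 1 in nTregs, Bcl2l1, and 0 in CD4 cells (0 also at an unadjusted p under 0.05). Among all genes 1.42% and 0.83% were called higher. Bcl2l1, the survival gene of Bcl-xL that CD28 induces, had nTreg values of 7.23, 8.02 and 7.99 under PBS and 8.49, 8.4 and 8.48 with AzaC. Array nTreg PBS 1 was far below the others, and the difference of 0.71 (SE 0.17, adjusted p = 0.0424) was 0.46 without it. The call was lost without each CD4 array and each nTreg AzaC array, with adjusted p up to 0.145. In CD4 cells Bcl2l1 had values of 7.83, 7.73 and 7.77 under PBS and 8.17, 8.08 and 7.97 with AzaC. These groups did not overlap, as for 23.6% of all genes. The interaction was called for 0 of the 19 genes, against 0.203% of all genes. The list's median was 0.26 in nTregs and -0.07 in CD4 cells, against -0.04 and 0.01 for all genes, and that of nTregs was 0.05 without nTreg PBS 1.

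Between populations, against 4.12% and 3.9% of all genes, 4 signalling genes were lower in nTregs under PBS and 0 higher. They were Grap2 (an adaptor of CD28, -0.63, SE 0.11), Vav1 (-0.69, SE 0.16), Il2 (-0.62, SE 0.16) and Plcg1 (-0.58, SE 0.15), with adjusted p values of 0.00253, 0.0184, 0.0315 and 0.0329. Grap2 alone was called without each array in turn. Vav1 was lost without CD4 PBS 2 or 3 (adjusted p up to 0.0623), and Plcg1 without any CD4 PBS array or nTreg PBS 1 (up to 0.102). Il2 was lost without any CD4 PBS array or nTreg PBS 2 or 3 (up to 0.114). With AzaC, Rel, an NF-kB subunit, was higher in nTregs (0.69, SE 0.12, adjusted p = 0.00206), and Grap2 (-0.49) and Il2 (-0.61) were lower, at adjusted p of 0.0136 and 0.0343. Grap2 was then lost without CD4 AzaC 1 or nTreg AzaC 1 (up to 0.0744), and Il2 without CD4 AzaC 1 or 2 or any nTreg AzaC array (up to 0.143).

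Of 9 genes of CTLA-4 trafficking and PD-1 signalling, AzaC lowered 1 in CD4 cells, Trat1, and changed 0 in nTregs (3 at an unadjusted p under 0.05, against 16.8% of all genes). Among all genes 0.933% were called lower in CD4 cells and 2.02% changed in nTregs. Trat1 encodes TRIM, an adaptor that carries CTLA-4 to the cell surface. Its CD4 values were 10.35, 10.45 and 10.37 under PBS and 9.79, 9.71 and 9.80 with AzaC. The groups stood clearly apart, and the log2 difference was -0.62 (SE 0.12, adjusted p = 0.0151). The adjusted p rose to as much as 0.0699 without CD4 PBS 2 or any CD4 AzaC array.

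Trat1 was higher in nTregs by 1.47 under PBS (SE 0.12, adjusted p = 2.67e-06) and by 1.77 with AzaC (SE 0.12, adjusted p = 5.15e-07), in the direction of Ctla4 itself. Ptpn6, the phosphatase SHP-1 that inhibits antigen receptor signalling, was lower in nTregs under PBS (-1.12, SE 0.16, adjusted p = 0.000489). In all, 2 of the 9 genes stood higher in nTregs and 4 lower under PBS, while with AzaC 2 stood higher and 0 lower. Among all genes 3.90% and 4.12% were called higher and lower under PBS and 4.57% and 2.19% with AzaC. Trat1 and Ptpn6 were called under PBS without each array in turn. Def6 (-0.68) was lost without CD4 PBS 3 (adjusted p = 0.0682) and was -0.45, still called, without nTreg PBS 1. Lax1 was lost without each of 4 arrays (up to 0.0772). The other 2, Ap2m1 and Rab11a, named after their values were seen, were lost without each of 5 and 7 arrays (up to 0.115 and 0.122), and Ap2m1 was -0.49 without nTreg PBS 1 against -0.81. With AzaC the second gene was Rab11a, lost without each of 4 arrays (up to 0.106).

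Of 17 measured regulators of B7 and CD28 family levels, AzaC raised 2 in nTregs, Nfkb2 and Relb, and 1 in CD4 cells, Foxp3. Among all genes 1.42% and 0.83% were called higher. The list's median was 0.23 in nTregs and -0.07 in CD4 cells, and that of nTregs was 0.08 without nTreg PBS 1. Nfkb2 and Relb encode the p100 precursor and its partner in the alternative NF-kB pathway, which drives B7 ligand genes in dendritic cells. Nfkb2 had nTreg values of 8.52, 9.27 and 9.48 under PBS and 10.77, 10.94 and 10.68 with AzaC. The treated arrays all lay more than 1 unit above the untreated ones, with a difference of 1.71 (SE 0.20, adjusted p = 0.000489). It held without each array in turn, at 1.42 to 1.91, the lowest value being that without nTreg PBS 1.

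Relb had nTreg values of 7.91, 8.46 and 8.31 under PBS and 9.58, 9.44 and 9.17 with AzaC, again without overlap. Its difference was 1.17 (SE 0.15, adjusted p = 0.0013), also called without each array. The interaction of Nfkb2 was 1.71 (SE 0.28, adjusted p = 0.0253), but the call was lost without any CD4 array or any nTreg AzaC array (adjusted p up to 0.0894). In CD4 cells the Nfkb2 means were 9.29 under PBS and 9.29 with AzaC.

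Foxp3 had CD4 values of 7.79, 8.09 and 8.26 under PBS and 9.39, 9.61 and 9.85 with AzaC, in cells sorted as negative for its reporter. The groups did not overlap, and the difference was 1.57 (SE 0.16, adjusted p = 0.000207). It stood beside the Cd80 rise in the same arrays. Of the 10 T cell markers, 2 were called higher there, Foxp3 and Il2ra, against 0.83% of all genes, and 8 were not called. Il2ra had CD4 means of 12.52 under PBS and 13.11 with AzaC. Ctla4, known as a target of Foxp3, differed by -0.16 and did not pass (adjusted p = 0.524). Whether the Foxp3 and Cd80 rises are linked was not tested.

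**Figure D5:**
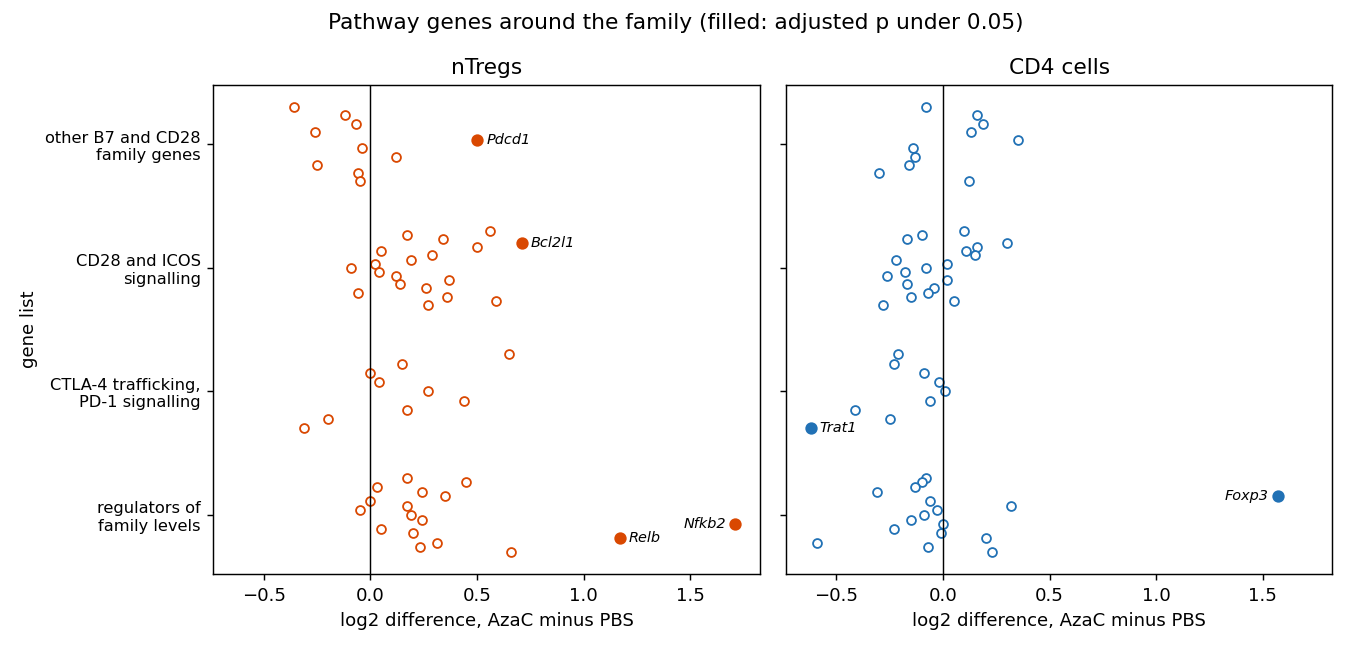
AzaC minus PBS, as a log2 difference, for the measured genes of 4 lists around the family, in nTregs (left) and CD4 cells (right). Each point is a gene, and filled points, with names, have an adjusted p under 0.05. Nfkb2 at 1.71 lies farthest to the right in nTregs and Foxp3 at 1.57 in CD4 cells.

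Because B7 ligands are also products of antigen-presenting cells, markers of other cells were read on the same arrays. Of 21 myeloid and dendritic cell markers, AzaC raised 4 and lowered 1 in nTregs, against 1.42% and 0.6% of all genes. H2-Aa rose by 1.36 (SE 0.16, adjusted p = 0.000488), Batf3 by 1.14 (SE 0.16, adjusted p = 0.00163), H2-Eb1 by 0.71 and Fcer1g by 0.62, while Itgam had a difference of -0.94. Without nTreg AzaC 1 the adjusted p of H2-Eb1 was 0.0603, and Fcer1g and Itgam were lost without each of 5 and 7 arrays (up to 0.124 and 0.141).

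The summed linear signal of the 21 markers was 5110 to 5801 in nTregs under PBS and 4472 to 4641 with AzaC, and in CD4 cells 3611 to 3988 and 2744 to 3228. The falls in this sum are those of H2-Ab1, which encodes an MHC class II chain. It differed by -0.78 in nTregs (SE 0.19, adjusted p = 0.0508) and was called lower in CD4 cells (-1.07, SE 0.19, adjusted p = 0.0101; 0.0528 without CD4 PBS 3). The other 20 markers, a split made after seeing the values, summed to 2232 to 2425 in nTregs under PBS and 2650 to 2819 with AzaC. In CD4 cells they summed to 1894 to 2027 and 2121 to 2186. Their sum was thus higher with AzaC in both populations, but the median log2 difference of all 21 was -0.02 in nTregs and 0.05 in CD4 cells. Over all genes it was -0.04 and 0.01. Beside these values stood the higher Cd86, Icosl and Cd274 of nTregs and the higher Cd80 of CD4 cells. The part of antigen-presenting cells in these results was not tested. Of the 21, 8 lay below the array median on all 12 arrays (Itgax, Cd14, Lyz2, Adgre1, Flt3, Siglech, S100a8 and S100a9) and 4 above it on all 12 (Cd209a, Batf3, H2-Ab1 and H2-Eb1). The other 9 lay on both sides. In nTregs with AzaC 9 of the 21 were below it on all 3 arrays, against 11 under PBS.

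Between populations, 3 of the 21 were higher in nTregs under PBS and 0 lower, namely Cd209a (0.87, adjusted p = 0.00149), H2-Ab1 (0.82, adjusted p = 0.0168) and H2-Eb1 (0.48, adjusted p = 0.0338). With AzaC 5 were higher and 0 lower, H2-Aa (1.15), H2-Eb1 (0.79), H2-Ab1 (1.11), Cd209a (0.66) and Fcer1g (0.54), with adjusted p values of 0.000318, 0.00151, 0.00226, 0.0106 and 0.028. Among all genes 3.9% were called higher and 4.12% lower under PBS, and 4.57% and 2.19% with AzaC. Under PBS H2-Ab1 was lost without CD4 PBS 1 or 2 (adjusted p up to 0.0644) and H2-Eb1 without each of 4 arrays (up to 0.127). With AzaC Cd209a was lost without each of 3 arrays (up to 0.0545) and Fcer1g without each of 5 (up to 0.101).

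Of 10 B cell markers, AzaC changed 0 in either population by limma. At an unadjusted p under 0.05 stood 0 in nTregs and 2 in CD4 cells, against 16.8% and 15.2% of all genes. The summed signal of the 10 B cell markers was 10344 to 13800 in nTregs under PBS and 12852 to 13384 with AzaC, and 11967 to 12273 and 9333 to 9546 in CD4 cells. Most of this sum is Ighm, whose mean log2 signal was 13.48 in CD4 cells under PBS and 13.09 with AzaC. In nTregs the Ighm mean was 13.51 and 13.58, with array nTreg PBS 1 at 13.21. Ms4a1, Ebf1, Blk, Cr2 and Fcer2a lay below the array median on all 12 arrays, Ighm above it on all 12 (13.07 to 13.66), Cd79b on 11 and Cd22 on 10. Cd79b, part of the B cell antigen receptor, was higher in nTregs under PBS (0.80, SE 0.16, adjusted p = 0.00691) and with AzaC (1.08, SE 0.16, adjusted p = 0.000716). Ighm was higher there with AzaC (0.49, SE 0.12, adjusted p = 0.0189), a call lost without any array of those 2 groups (up to 0.0766). The 4 NK cell markers summed to 222 to 306 over all groups, and 0 were called with AzaC. At an unadjusted p under 0.05 stood 2 in nTregs and 1 in CD4 cells, against the same shares of all genes.

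Both CD8 markers were called higher with AzaC in nTregs and 0 of the 2 in CD4 cells, against 1.42% and 0.83% of all genes. Under PBS 0 of the 2 were called between the populations. For the interaction 0 were called, with 2 at an unadjusted p under 0.05, against 17.5% of all genes. Cd8a rose in nTregs from 6.86 ± 0.48 (SD, n = 3) to 8.24 ± 0.08 (1.39, SE 0.19, adjusted p = 0.0018). Cd8b1 rose by 0.72 (SE 0.15, adjusted p = 0.0213; up to 0.0974 without nTreg PBS 1 or any nTreg AzaC array). Their summed signal was 1302 to 1648 under PBS and 2427 to 2650 with AzaC in nTregs, and 1125 to 1352 and 854 to 1271 in CD4 cells. Both nTreg groups were sorted as CD4+ cells without DsRed and with the Foxp3 reporter, and the purity of the sort was not examined here. The part of CD8 cells in the nTreg results was not tested.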

How the data were processed

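Biotin-labelled RNA made with the WT Pico kit was read on 12 arrays. The deposited table gives log2 values that the authors obtained by RMA (background correction, quantile normalization, probe summary) with Affymetrix Expression Console (per the submitters' own processing notes). The sources used here name no versions and no annotation build. The number of arrays limits precision.

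Of 41345 rows, 23521 carry 1 gene symbol, 1814 several and 16010 none, and the brightest row of a gene was kept (22180 genes). No dim gene was removed. Group means over the 12 arrays were compared with limma 3.58.1 (R 4.3.3; 8 residual degrees of freedom) for 5 comparisons, with Benjamini-Hochberg adjustment over 22180 genes and a threshold of 0.05. The procedure was tested on simulated data. Genes named are the 9 members, called genes of 4 pathway lists (at most 4 per list and comparison, by smallest p) and the 3 genes most like each member called under AzaC. Marker lists cover 5 cell types. The members and lists were chosen with earlier results of these data known.

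Some genes of the pathway and marker lists are not reported here. Alternatives covered normalization, a filter on dim genes, row choice, arrays left out, blocks, array weights, moderation and a fold threshold.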

Additional observations from a re-analysis of the deposited data

Results flagged for a closer look

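The AzaC effect differed between the populations for 2 of the 9 genes, by the interaction test in limma. For Cd80 the effect in nTregs minus that in CD4 cells was -1.69 (SE 0.19, adjusted p = 0.00195). All 3 treated CD4 arrays lay above their PBS arrays. The 3 treated nTreg arrays lay below theirs by a gap of only 0.06, and that difference of -0.19 did not pass (adjusted p = 0.486). For Cd86 the interaction was 1.1 (SE 0.19, adjusted p = 0.0356), with all 3 treated nTreg arrays above their PBS arrays and overlapping CD4 groups. Groups without overlap made up 24.5% of all genes in nTregs and 23.6% in CD4 cells. The Cd86 call was lost without each of 9 arrays. No explanation of either difference was tested.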

How the results depend on the processing

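The 45 differences of the 9 genes gave 540 values with 1 array left out, of which 514 kept direction and call, 12 lost and 4 gained a call and 10 turned sign, and 531 under other alternatives, of which 504 kept both, 10 lost, 9 gained and 8 turned. No difference that turned sign was called. With arrays centred on their median these were Cd276 in nTregs (0.01) and the interactions of Pdcd1lg2 (0.01) and Cd28 (0.04). Centring moved the interaction's median over all genes from -0.036 to 0.089, with Cd80 and Cd86 interactions of -1.56 and 1.22. Relative to that median they were -1.65 and 1.13 on both scales. That had to follow, because centring shifts all genes of an array alike. With repeated quantile normalization the differences that turned sign were Icos in CD4 cells (0.05), the interaction of Cd274 (0.00) and Cd28 under PBS (0.02). Without nTreg PBS 1 and CD4 PBS 3 together, a choice made after seeing the data, they were Cd86 in CD4 cells (0.01) and Cd276 under PBS (-0.01, up to 0.17 with arrays left out).

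With 1 array left out, sign changes occurred in CD4 cells for Pdcd1lg2 (-0.03 to 0.36), Cd86 (-0.21 to 0.01) and Icos (-0.12 to 0.07), in nTregs for Pdcd1lg2 (-0.04 to 0.20) and Cd276 (-0.12 to 0.03), and in the interaction for Pdcd1lg2 (-0.29 to 0.10) and Cd28 (-0.18 to 0.01). The genes called of the 9 then numbered 2 to 3 in nTregs, 1 to 2 in CD4 cells and for the interaction, and 5 to 6 in both population comparisons. They were 1 for the interaction with repeated quantile normalization or every row tested (Cd86 lost, adjusted p = 0.0692 and 0.13), 2 in CD4 cells with dim genes removed or array weights (Cd274 gained, 0.0424 and 0.0391), 2 in nTregs with every row tested or only the groups compared (Cd274 lost, 0.062 and 0.0676) and 4 with array weights (Cd28 gained, 0.0202), 6 with AzaC when centred, with dim genes removed, with array weights (Cd80 gained, 0.0481, 0.0428 and 0.0033) or without nTreg PBS 1 and CD4 PBS 3 together (0.0278), 6 under PBS with dim genes removed or array weights (Pdcd1lg2 gained, 0.0389 and 0.0191), and, with a log2 difference of at least 1, 1 in nTregs and 2 under PBS.

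Replicate numbers were checked for pairing: of 18 same-numbered pairs, 3 had correlated deviations over 0.1 (r between -0.1 and 0.19), so the numbers were not taken to pair samples. With the replicate number as a block, 3, 1, 2, 5 and 5 of the 9 genes were called in nTregs, in CD4 cells, for the interaction, under PBS and with AzaC, as without it, and no call among the 9 genes changed. The count over all genes was 448 in nTregs (125 with only the groups compared, 1290 with array weights, 219 over every row, 186 to 447 with 1 array left out), 391 in CD4 cells (1291 with weights, 255 over every row, 678 without both nTreg PBS replicate 1 and CD4 PBS replicate 3, 164 to 1044), 45 for the interaction (89 centred, 70 with dim genes removed, 13 over every row, 401 with weights, 77 without those 2 arrays, 9 to 69), 1777 under PBS (648 with only the groups compared, 1042 to 1862) and 1498 with AzaC (2350 likewise, 3500 with weights, 2972 without those 2 arrays, 896 to 2467). With a difference of at least 1 it was 71, 57, 279 and 289 in nTregs, CD4 cells, under PBS and with AzaC. The split into higher and lower was 315 and 133 in nTregs (394 and 84 centred, 252 and 184 with repeated quantile normalization), 184 and 207 in CD4 cells (132 and 351, 203 and 138), 32 and 13 for the interaction (82 and 7, 32 and 23), 864 and 913 under PBS (583 and 1415 centred) and 1013 and 485 with AzaC (857 and 657 with repeated quantile normalization).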
